A study of Mus musculus with 6 samples.

Results

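The genes described here encode 3 families of RNA-binding proteins: the serine and arginine-rich splicing factors (symbols Srsf and a number), the heterogeneous nuclear ribonucleoproteins (symbols starting with Hnrnp) and the RNA-binding motif proteins (symbols Rbm and a number). They were taken by symbol alone, without use of any measured value. Of 78 such mouse symbols, 71 had at least 1 probe on the array, among 45616 genes in all, and their 122 probes gave 20 Srsf, 41 Hnrnp and 61 Rbm readings per array. The 71 were 11 Srsf, 21 Hnrnp and 39 Rbm genes, of which 69 were annotated as protein coding and 2, Rbm3os and Rbm46os, as long non-coding RNAs. The 7 without a probe were Rbm31y and 6 pseudogenes. For 64 genes the brightest probe was clearly above background on every array of 1 or more groups, 10 Srsf, 21 Hnrnp and 33 Rbm, and these 64 were tested. Passing that filter through 1 group alone makes a difference from the other groups more likely, but 61 of the 64 were well above background on all arrays of the groups compared, in each contrast against control.

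Expression was measured in tail tissue fibroblasts, primary cells grown out of skinned mouse tail pieces, from C57BL/6 mice labelled LH2F/F CAG-Cre and LH2 cKO. LH2 is lysyl hydroxylase 2, the product of Plod2, which hydroxylates lysines in collagen telopeptides, and CAG is a promoter active in most cell types. All 3 groups carried this genotype label, and by the labels the control group differed from the others in its exposure to tamoxifen. Control was never exposed and its medium lacked the drug. Both treated groups were exposed for 24 h, after which the medium of no.1 still contained tamoxifen and that of no.2 did not. The Plod2 alleles were not examined after treatment, so their deletion can be judged only from the transcript, given below. Each group had 2 samples, each on 1 single-colour Agilent array, and nothing in the labels ties them to separate animals or cultures, so the p-values speak of the spread of these samples only, which may be technical. No effect of tamoxifen itself can be told apart from that of the deletion.

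Plod2, the targeted gene, stood at 1.23 and 1.04 (control), 0.331 and 0.201 (no.1) and 0.242 and 0.151 (no.2), in multiples of each array's 75th percentile of signal, and was called lower than control by limma in both groups, by 2.13 and 2.57 on the log2 scale. With arrays scaled to the spiked-in controls these differences are -0.19 and -1.28, so the size of the fall, above all in no.1, depends on the scale. Probes well above background made up 44.2% to 53.5% of all probes, fewest in control and most in no.1, and the small number of arrays sets the precision of each value. The 2 control arrays almost coincided: the SD of their difference over the 64 genes was 0.16 on the log2 scale, against 0.27 for the no.1 pair and 0.33 for the no.2 pair. On the slide, control occupied row 1 and both treated groups row 2, which cannot be told apart from treatment, and the file names carry 24 h for replicate 1 and 48 h for replicate 2 of no.1 and no.2 where the labels give 24 h. Of 12 fibroblast markers 11 were well above background on every array, all but Lum. Markers of other cells were sparser: 2 of 7 keratinocyte markers (Krt10 and Trp63) and 3 of 6 macrophage and leukocyte markers (Csf1r, Cd68 and Itgam) were well above background on every array. All 6 macrophage and leukocyte markers, with those below background, summed to 47.6 and 44.5 (control), 27.5 and 31.4 (no.1) and 35.1 and 28.5 (no.2). Depending on the array, 0 to 2 of 5 endothelial and 1 or 2 of 6 skeletal muscle markers were well above background. So were 1 of 4 adipocyte and 2 to 4 of 6 Schwann cell and melanocyte markers, so none of these lists was silent throughout. Krt5, Krt14, Epcam, Cdh1, Ptprc, Cdh5, Vwf, Myod1, Adipoq and Sox10 were not well above background on any array.

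SR proteins bind exonic enhancer sequences in nascent transcripts through RNA recognition motifs and recruit the spliceosome through a tail of arginine and serine repeats, whose phosphorylation by the SRPK and CLK kinases moves them between nuclear speckles and transcripts. The hnRNPs package nascent RNA and often oppose SR proteins at silencer elements, and several of them also act on export, stability and translation of mRNA. The Rbm symbols gather proteins that share an RNA recognition motif and little else: splicing regulators, parts of the exon junction complex, adaptors of the N6-methyladenosine (m6A) writer and nucleolar proteins.

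Most of the 3 families stood higher in no.1 than in control. Of the 64 tested genes 46 were called higher and 2 lower (Rbm4 and Rbm42), at a Benjamini-Hochberg adjusted p under 0.05 in limma, where 21.4% of all 23060 tested genes were called higher and 26.4% lower. By family, 8 of 10 Srsf, 18 of 21 Hnrnp and 20 of 33 Rbm genes were called higher, and both genes called lower were Rbm genes. The median log2 fold change was 0.92 over the 64, 1.45 over Srsf, 1.05 over Hnrnp and 0.83 over Rbm genes, against -0.12 over all tested genes. In bulk samples, fewer cells of a type and less RNA per cell cannot be told apart. The groups' arrays did not overlap, with no.1 above control, for 54 of the 64 genes, where 36.7% of all tested genes did so. Restricted to genes detected on all 6 arrays, the share of all genes called higher was 20.1%. The count depends on the close agreement of the control arrays: with both averaged into 1 sample 19 of the 46 were still called (6 Srsf, 7 Hnrnp and 6 Rbm genes) beside 9.8% of all genes, and 18, 20 and 22 were called higher without control replicate 1, control replicate 2 and no.1 replicate 1, beside 11.4%, 9.84% and 11.3% of all genes.

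**Figure D1:**
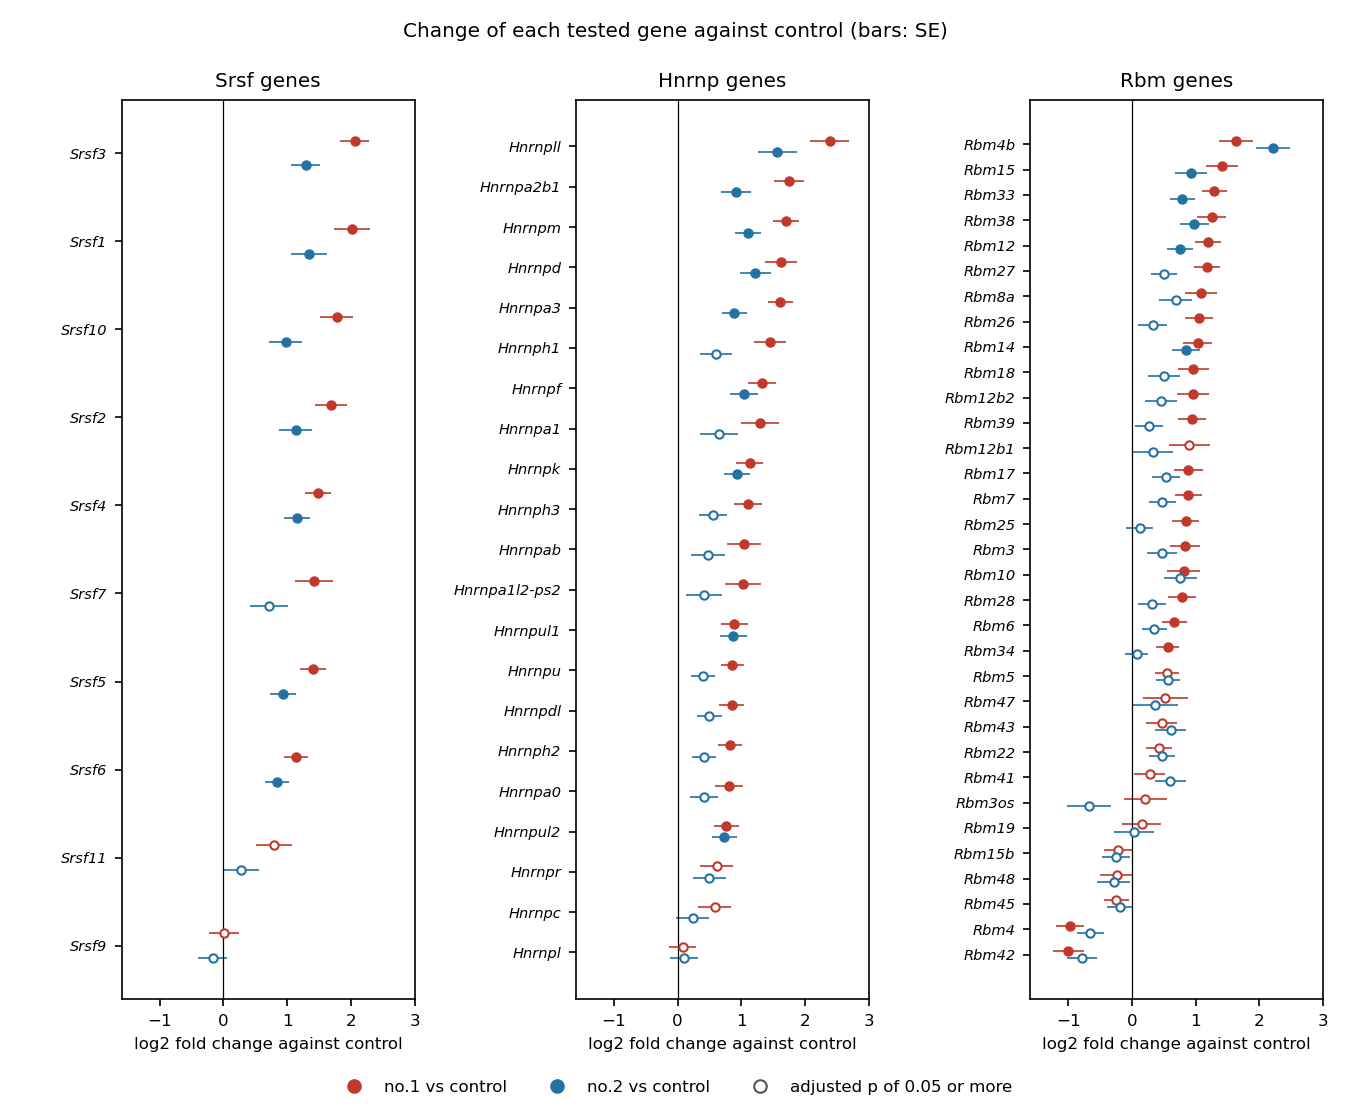
Each row is 1 of the 64 tested genes, in 3 panels by family, and the x axis is the log2 fold change against control with its SE, red for no.1 and blue for no.2, filled where the adjusted p was under 0.05. Nearly all Srsf and Hnrnp points lie right of 0 and the no.1 point usually lies right of the no.2 point, while Srsf9 and Hnrnpl lie near 0 and Rbm4 and Rbm42 lie left of it; the Rbm4b values are fitted against a control below background and are no bounds.

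Among the SR proteins, the largest differences were in Srsf3, Srsf1 and Srsf10. Srsf3, the smallest SR protein, which also takes part in mRNA export, read 5.63 and 5.97 (control), 28.4 and 20.6 (no.1) and 14.8 and 13.7 (no.2), in multiples of the array's 75th percentile. The 3 groups did not overlap, and no.1 differed from control by 2.06 on the log2 scale (SE 0.23, adjusted p = 0.00283 by limma), a 4.17-fold difference. Srsf1, the factor first known as a general splicing factor and regulator of 5′ splice site choice, read 2.68 and 2.90 (control), 14.3 and 8.86 (no.1) and 7.84 and 6.34 (no.2). Both treated groups lay above control, with no.1 replicate 1 highest, with a change of 2.02 in no.1 (SE 0.28, adjusted p = 0.00452). Srsf10, an SR protein that acts as a repressor when dephosphorylated, read 1.09 and 1.23 (control), 4.84 and 3.26 (no.1) and 2.51 and 2.06 (no.2). For no.1 that is a change of 1.78 (SE 0.26, adjusted p = 0.00494).

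The other SR genes ranged more widely. Srsf2, the speckle protein once called SC35, rose by 1.69 in no.1, Srsf4 by 1.49, Srsf7 by 1.42, Srsf5 by 1.40 and Srsf6 by 1.14, all on the log2 scale with adjusted p between 0.00426 and 0.0124. Srsf11 had a log2 fold change of 0.80 in no.1 (adjusted p = 0.0609) and was not called. Srsf9 was the exception: it read 75.2 and 75.3 (control), 81.8 and 69.9 (no.1) and 78.5 and 56.9 (no.2). Its groups overlapped, and no.1 differed from control by 0.01 (SE 0.23). Srsf12 was well above background on 2 arrays only and was not tested.

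**Figure D2:**
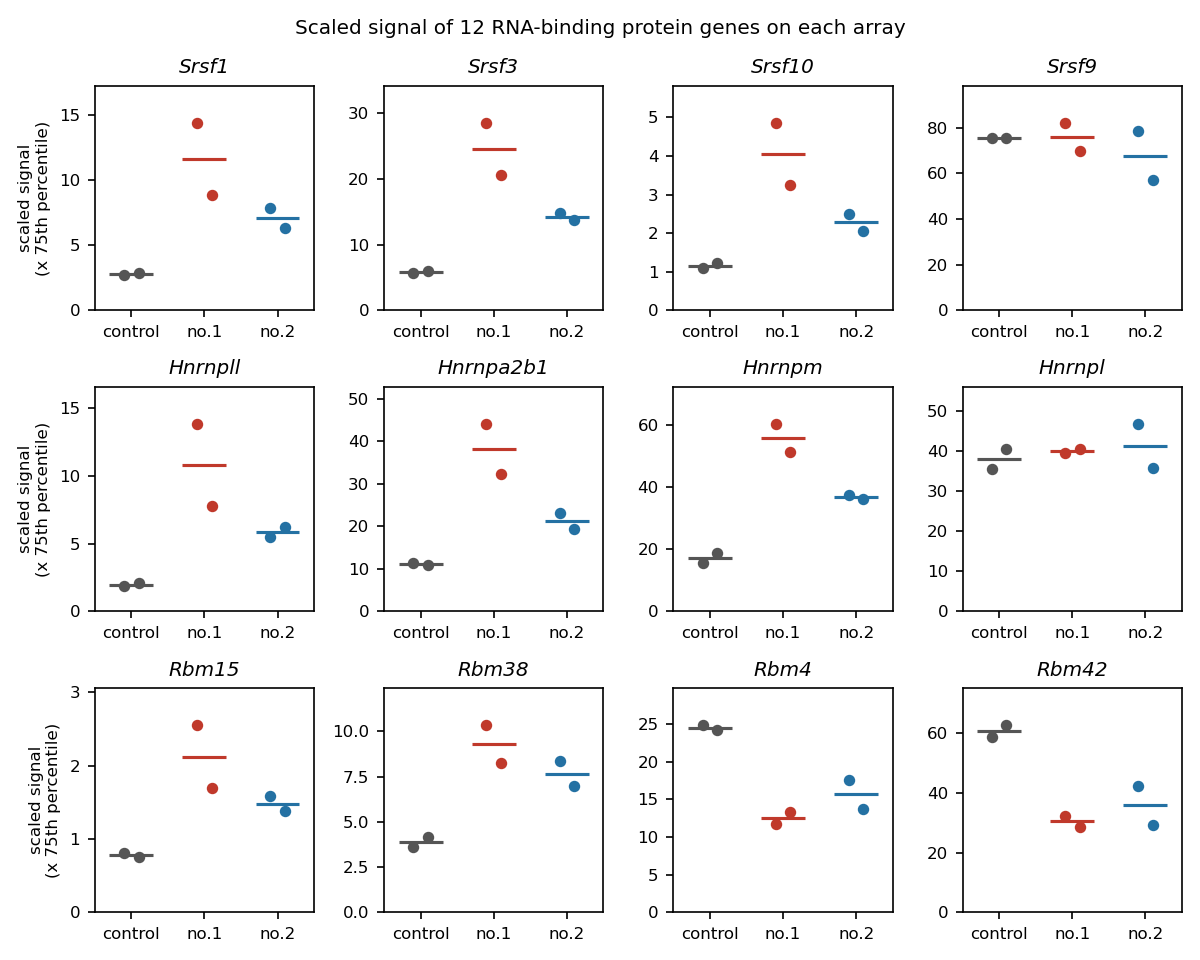
Each panel is 1 gene, the y axis is the signal in multiples of the array's 75th percentile and starts at 0, each point is 1 array (replicate 1 left, replicate 2 right) and each line is the mean of a group's 2 arrays. Srsf1, Srsf3, Srsf10, Hnrnpll, Hnrnpa2b1, Hnrnpm, Rbm15 and Rbm38 stand above control in both treated groups, Srsf9 and Hnrnpl overlap between groups, and Rbm4 and Rbm42 stand below control.

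The sequences before the transcription start of these genes are shown because their transcripts moved together. The 120 bases upstream of the start are given for the 3 SR genes with the largest change and for Srsf9, which did not change detectably, from RefSeq on build GRCm38.p6: Srsf3 at chr17:29032540-29032659, Srsf1 at chr11:88047253-88047372, Srsf10 at chr4:135855951-135856070 and Srsf9 at chr5:115327057-115327176, all on the + strand and printed 5′ to 3′. Capitals mark matches to 5 motifs, searched on both strands and picked after the sequences had been seen: the CCAAT box, the GC box (GGGCGG), the E2F type (TTTCCCGC), the core of a cAMP response element (TGACGT) and the TATA box (TATAAA).
Srsf3: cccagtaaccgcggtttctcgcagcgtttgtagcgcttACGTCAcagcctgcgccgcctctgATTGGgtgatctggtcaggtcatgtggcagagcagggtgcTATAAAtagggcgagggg
Srsf1: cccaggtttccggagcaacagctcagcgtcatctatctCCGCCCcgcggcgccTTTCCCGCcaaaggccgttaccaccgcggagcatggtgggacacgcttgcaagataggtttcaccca
Srsf10: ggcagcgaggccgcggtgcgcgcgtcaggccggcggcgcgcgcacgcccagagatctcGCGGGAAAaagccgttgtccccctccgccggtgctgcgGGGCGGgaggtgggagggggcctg
Srsf9: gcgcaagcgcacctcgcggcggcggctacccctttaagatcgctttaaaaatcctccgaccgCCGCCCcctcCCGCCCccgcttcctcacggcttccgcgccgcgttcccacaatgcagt
A RefSeq window of 250 bases before the start was available for 61 of the 71 genes and for 27025 genes in all. The latter include genes that were not tested here, and a comparison with the tested genes alone was not made. GGGCGG, whose matches can overlap those of the E2F-type motif, was present in 55.7% of the 61 and in 35.4% of all genes, and in 10 of the 11 Srsf windows. TTTCCCGC was in 4 of the 61 (6.56%), Srsf1 and Srsf10 among them, and in 1.03% of all genes. TGACGT was in 19.7% against 7.29%, CCAAT in 49.2% against 37.5% and TATAAA in 13.1% against 14.3%. The motifs did not separate the genes by their change: GGGCGG was in 24 of 40 genes called higher in no.1 and in 8 of the 16 other tested genes, and Srsf9 carries 2 matches in the bases shown. A match is a description of the letters and no evidence of binding.

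Among the hnRNPs, Hnrnpll, Hnrnpa2b1 and Hnrnpm differed most. Hnrnpll, a paralog of Hnrnpl known for switching exons of the leukocyte phosphatase gene Ptprc, read 1.84 and 2.12 (control), 13.8 and 7.76 (no.1) and 5.49 and 6.26 (no.2). The groups did not overlap, and no.1 exceeded control by 2.39 (SE 0.31, adjusted p = 0.00376), a 5.23-fold difference and the largest of the 64. Hnrnpa2b1, an RNA transport factor and proposed m6A reader, read 11.5 and 11.0 (control), 43.9 and 32.4 (no.1) and 23.2 and 19.5 (no.2). Its values were ordered by group without overlap, with a change of 1.75 in no.1 (SE 0.23, adjusted p = 0.00394). Its other probe, at 1.03, was not called. Hnrnpm, a splicing regulator studied in epithelial to mesenchymal transition, read 15.7 and 18.8 (control), 60.2 and 51.3 (no.1) and 37.5 and 36.2 (no.2). That is a change of 1.70 in no.1 (SE 0.21, adjusted p = 0.00340), but it rests on 1 of 2 probes, as given below.

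The A and B type hnRNPs and their relatives, which bind AU-rich and UAG-containing RNA, were all called higher in no.1. The log2 fold changes were 1.62 for Hnrnpd, a factor of AU-rich mRNA decay, 1.61 for Hnrnpa3, 1.30 for Hnrnpa1, 1.05 for Hnrnpab, 0.85 for Hnrnpdl and 0.80 for Hnrnpa0, with adjusted p from 0.00342 to 0.0271. A probe for Hnrnpa1l2-ps2, annotated as protein coding although its symbol is that of a pseudogene, gave 1.03, and since the files hold no probe sequence, its separation from Hnrnpa1 was not tested. The G-run binding group was also called higher throughout, with 1.44 for Hnrnph1, 1.33 for Hnrnpf, 1.11 for Hnrnph3 and 0.82 for Hnrnph2. So were Hnrnpk, a poly(C) binding protein, at 1.13, Hnrnpul1 at 0.89, Hnrnpu, a nuclear scaffold protein, at 0.86, and Hnrnpul2 at 0.76.

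The 3 hnRNPs that were not called in no.1 were Hnrnpr, Hnrnpc and Hnrnpl. Hnrnpl, which binds CA repeats, read 35.6 and 40.5 (control), 39.5 and 40.6 (no.1) and 46.6 and 35.7 (no.2). Its groups overlapped, and no.1 differed from control by 0.08 (SE 0.22), beside 2.39 for its paralog Hnrnpll. Hnrnpc, which coats uridine tracts in introns, had 0.58 (adjusted p = 0.108) and Hnrnpr had 0.61 (adjusted p = 0.0940).

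The Rbm genes were the most mixed family. Rbm15, an adaptor that brings the m6A writer to its RNA targets, read 0.804 and 0.753 (control), 2.55 and 1.70 (no.1) and 1.59 and 1.38 (no.2). The groups did not overlap, and no.1 exceeded control by 1.42 (SE 0.25, adjusted p = 0.00800). Its paralog Rbm15b did not follow: it read 9.34 and 9.31 (control), 8.56 and 7.53 (no.1) and 9.04 and 6.82 (no.2), a change of -0.22 in no.1 (SE 0.22, adjusted p = 0.442). Rbm33 read 1.99 and 1.93 (control), 5.28 and 4.38 (no.1) and 3.55 and 3.24 (no.2), with a change of 1.30 in no.1 (SE 0.20, adjusted p = 0.00547). Rbm38, a p53 target that binds and regulates the mRNA of the CDK inhibitor Cdkn1a, read 3.59 and 4.19 (control), 10.3 and 8.25 (no.1) and 8.36 and 6.98 (no.2). That is a change of 1.25 in no.1 (SE 0.22, adjusted p = 0.00800).

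Several Rbm proteins take part in splicing, and their genes differed. In no.1 the log2 fold changes were 0.94 for Rbm39, a U2AF-related factor, 0.89 for Rbm17, 0.85 for Rbm25, 0.81 for Rbm10 and 0.67 for Rbm6, while Rbm5 had 0.56 (adjusted p = 0.0534) and Rbm22 0.43 (adjusted p = 0.130), and Rbm4, also a splicing regulator, was called lower. Rbm8a, the exon junction core protein Y14, rose by 1.08, and Rbm7, a subunit of a nuclear exosome targeting complex, by 0.88. Rbm27 rose by 1.18 and its paralog Rbm26 by 1.05. Of the nucleolar proteins, Rbm28 rose by 0.78 and Rbm34 by 0.56 (-0.08 on its other probe), while Rbm19 had 0.15 with overlapping groups. Rbm3, a cold-inducible protein, read 45.7 and 49.5 (control), 86.7 and 82.9 (no.1) and 78.5 and 55.8 (no.2), a change of 0.83 in no.1. Rbm12, Rbm14, Rbm18 and Rbm12b2 were also called higher, at 1.19, 1.03, 0.96 and 0.96. Rbm12b1, Rbm43, Rbm45, Rbm47 and Rbm48 were not called.

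Rbm4 and Rbm42 went the other way. Rbm4, a regulator of alternative splicing and of translation, read 24.8 and 24.2 (control), 11.8 and 13.3 (no.1) and 17.6 and 13.7 (no.2). Control lay above all other arrays, with a log2 difference of -0.97 in no.1 (SE 0.21, adjusted p = 0.0141). Rbm42, a partner of hnRNP K, read 59.0 and 62.7 (control), 32.5 and 28.6 (no.1) and 42.4 and 29.4 (no.2), a change of -0.997 in no.1 (SE 0.24, adjusted p = 0.0188). The other Rbm42 probe gave -0.40 in no.1 and was not called. These 2 falls are relative to the 75th percentile: with arrays scaled to the spiked-in E1A controls, which adds 1.94 to each log2 difference between no.1 and control, they become 0.97 and 0.94. Neither was called with the array median as the scale, with normexp background correction, with the control arrays averaged, or without either control array or no.1 replicate 1, and Rbm42 was not called without no.1 replicate 2. The 120 bases before their starts are shown for comparison with the SR genes, from the − strand at chr19:4794010-4794129 for Rbm4, 1 of 2 RefSeq windows, and at chr7:30650229-30650348 for Rbm42, with the same motifs in capitals.
Rbm4: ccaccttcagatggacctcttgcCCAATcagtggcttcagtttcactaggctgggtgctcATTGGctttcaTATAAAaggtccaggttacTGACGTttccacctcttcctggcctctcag
Rbm42: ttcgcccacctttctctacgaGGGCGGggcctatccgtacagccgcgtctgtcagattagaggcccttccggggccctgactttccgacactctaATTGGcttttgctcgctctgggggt

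Rbm4b, the paralog of Rbm4, was measured only in the treated groups. It read 0.0522 and 0.0746 in control, not well above background on either array, 0.180 and 0.208 in no.1 and 0.331 and 0.253 in no.2. On the processed signal, set against the lowest signal well above background, it was at least 1.44-fold higher in no.1 (adjusted p = 0.00623) and at least 2.16-fold higher in no.2 (adjusted p = 0.00588). It passed the filter only through the groups where it is high, so these p-values are no independent support. With normexp background correction its log2 fold change in no.1 turned to -0.37, and in no.2 it was 0.02, so neither the direction nor the bound holds beyond the processed signal. Rbm41 and Rbm3os were likewise not above background on both arrays of every group and were not called.

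The same families stood higher than control in no.2, by less. Of the 64 genes 22 were called higher and 0 lower, where 12.1% of all tested genes were called higher and 16.2% lower, and at an unadjusted p under 0.05 in limma 30 were higher and 2 lower, where 19.4% of all tested genes were higher and 25.5% lower. The 22 were 7 Srsf, 9 Hnrnp and 6 Rbm genes, and each of them was also called higher in no.1. Both contrasts share the control arrays. The median log2 fold change was 0.52 over the 64, 0.95 over Srsf, 0.60 over Hnrnp and 0.48 over Rbm genes, against -0.10 over all tested genes. The arrays of no.2 and control did not overlap, with no.2 above, for 50 genes, where 33.2% of all tested genes did so. These calls rest on the control pair: with the control arrays averaged, or with either of them left out, 1 gene was called, Rbm4b, beside 2.5% of all genes with the averaged control. Leaving out no.2 replicate 1 gave 11 genes called higher, beside 9.70% of all genes, and leaving out no.2 replicate 2 gave 8, beside 5.42%.

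The leading genes in no.2 were again SR proteins and hnRNPs. Srsf1 had a log2 fold change of 1.34 (SE 0.28, adjusted p = 0.0220), Srsf3 of 1.29 (SE 0.23, adjusted p = 0.0140) and Srsf4, which read 3.22 and 3.16 (control), 9.60 and 8.36 (no.1) and 7.78 and 6.44 (no.2), of 1.15 (SE 0.20, adjusted p = 0.0145). Hnrnpll had 1.57 (SE 0.31, adjusted p = 0.0185) and Hnrnpm 1.10 (SE 0.21, adjusted p = 0.0164). Hnrnpd read 9.34 and 9.53 (control), 32.9 and 25.7 (no.1) and 25.8 and 18.7 (no.2), a change of 1.22 in no.2 (SE 0.25, adjusted p = 0.0194). Its no.1 and no.2 arrays overlapped, with no.2 replicate 1 just above no.1 replicate 2, and both groups lay above control. Rbm38 had 0.98 (SE 0.22, adjusted p = 0.0268) and Rbm15 0.93 (SE 0.25, adjusted p = 0.0422). Rbm14, a paraspeckle protein, read 13.0 and 14.3 (control), 30.2 and 25.7 (no.1) and 28.0 and 21.6 (no.2), a change of 0.85 in no.2 (SE 0.22, adjusted p = 0.0378).

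Of the 46 genes called higher in no.1, 24 were not called in no.2. Srsf7 was the one SR gene among them, at 1.42 in no.1 and 0.72 in no.2 (adjusted p = 0.113). Hnrnph1 was at 1.44 and 0.60, Hnrnpa1 at 1.30 and 0.65, Rbm27 at 1.18 and 0.51, Rbm26 at 1.05 and 0.32, Rbm39 at 0.94 and 0.27 and Rbm25 at 0.85 and 0.12. Hnrnpul1 and Hnrnpul2 were at nearly the same place in both, 0.89 and 0.87 for the first and 0.76 and 0.73 for the second. Rbm4 had -0.65 (adjusted p = 0.0652) and Rbm42 -0.78 (adjusted p = 0.0569) in no.2 and were not called. The difference between the treated groups was tested directly, as follows.

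The design text of the series names the comparison of no.1 with no.2, cells kept in tamoxifen medium against cells moved to medium without it. No gene of the 64 was called in either direction by limma, and of all 23060 genes 0% were. The lowest adjusted p among the 64 was 0.282, and 16 had an unadjusted p under 0.05, all with no.1 higher, where 8.24% of all tested genes were higher at that level and 8.35% lower. The values nevertheless leaned one way: 55 of 64 log2 differences were above 0, 10 of 10 for Srsf, 20 of 21 for Hnrnp and 25 of 33 for Rbm genes, where 49.0% of all tested genes were above 0. The median was 0.40 over the 64 and -0.01 over all genes, and the arrays of no.1 lay above those of no.2 without overlap for 37 genes, where 22.5% of all tested genes did so. Without no.1 replicate 1 the median fell to 0.24, and without no.1 replicate 2 it was 0.55.

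**Figure D3:**
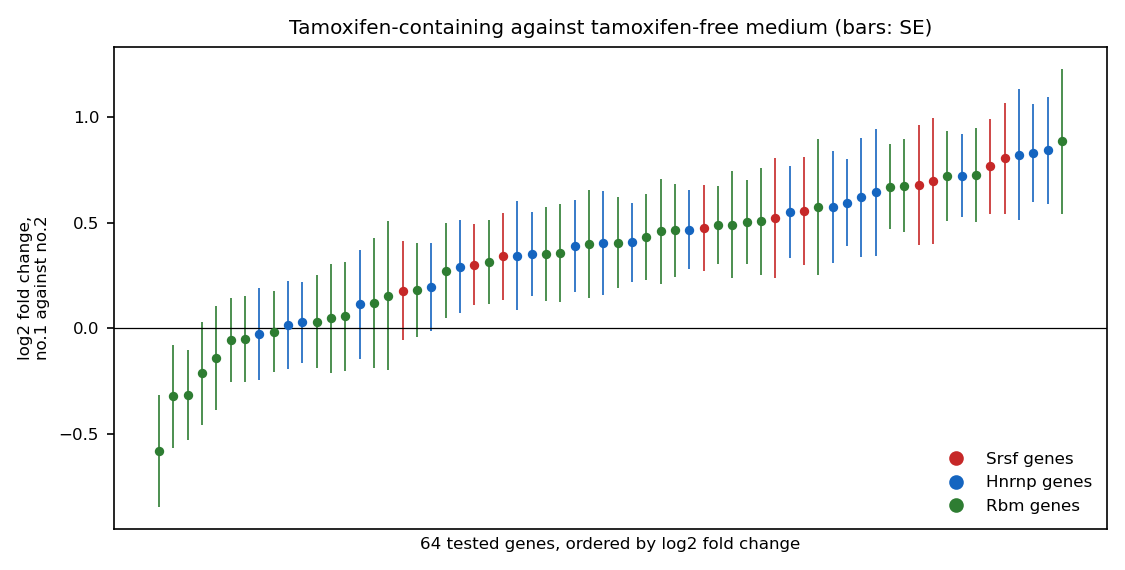
Each point is 1 of the 64 tested genes ordered by its log2 fold change of no.1 against no.2 on the y axis, with its SE as a bar and its family as the colour. Most points lie above 0 and none has an adjusted p under 0.05; the lowest point is Rbm4b at -0.58.

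The genes of lowest p with no.1 higher were Srsf3, Hnrnpa2b1, Hnrnpa3, Rbm25 and Rbm27, each with an adjusted p of 0.282. Hnrnpa2b1 differed by 0.83 (SE 0.23), Srsf3 by 0.77 (SE 0.23), Rbm25 by 0.72 (SE 0.21), Hnrnpa3 by 0.72 (SE 0.20) and Rbm27 by 0.67 (SE 0.20) on the log2 scale. Rbm25, a U1-associated splicing factor, read 16.1 and 12.8 in no.1, 9.34 and 8.11 in no.2 and 8.31 and 7.66 in control. Its no.2 arrays lay between, close to control. Hnrnpa3 read 124 and 117 in no.1, 79.7 and 66.6 in no.2 and 38.8 and 39.9 in control. Rbm27 read 2.06 and 1.82 in no.1, 1.12 and 1.32 in no.2 and 0.875 and 0.835 in control. With no.1 lower in all 4 pairs of arrays there were 3 genes, Rbm4b at -0.58 (adjusted p = 0.325), Rbm4 at -0.32 (adjusted p = 0.454) and Rbm41 at -0.32 (adjusted p = 0.499), and spike-in scaling, which adds 0.65 here, turns them to 0.07, 0.33 and 0.33.

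The order of the group means was shared by most of the genes. Control was lowest, no.2 intermediate and no.1 highest for 51 of the 64 (79.7%), for 9 of 10 Srsf and 20 of 21 Hnrnp genes and for 22 of 33 Rbm genes, beside 28.2% of all tested genes. No.2 was highest and control lowest for 6 genes, and control was highest for 5. Within the treated groups the replicates also differed in a common direction. In no.1, replicate 1 read above replicate 2 for 54 of the 64 genes, where 52.0% of all tested genes did so, and in no.2 for 49, where 57.3% of all tested genes did so. These replicates carry 24 h and 48 h in their file names, and whether this bears on the difference was not tested.

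Array by array, the median log2 level of the 64 genes above the control mean was 1.11 and 0.78 (no.1), 0.64 and 0.49 (no.2), and -0.03 and 0.03 in the control arrays themselves. For Srsf genes it was 1.62, 1.40, 1.11 and 0.80 in that order, for Hnrnp genes 1.25, 0.84, 0.74 and 0.46, and for Rbm genes 1.00, 0.69, 0.36 and 0.48. Of 10 proliferation markers, all were called higher in both treated groups, and their medians were 3.02, 2.35, 2.08 and 1.55 over the same arrays. Their summed level was 58.7 and 63.6 (control), 402 and 239 (no.1) and 220 and 146 (no.2), in multiples of the 75th percentile. The medians of the proliferation markers and of the Srsf and Hnrnp genes thus shared 1 order of arrays. Among the lists given below, the treated arrays stood in that order for SR-related proteins, other splicing regulators, and exon junction and decay genes. They did not for SR kinases, the core spliceosome and the m6A writer complex. The Rbm median was higher on no.2 replicate 2 than on replicate 1. Even so, 22 of 33 Rbm genes read higher on replicate 1, beside 57.3% of all tested genes. The part of proliferation in the result was not tested. Fibroblast markers moved too, with 2 of 11 called higher and 5 lower in no.1, where 21.4% and 26.4% of all tested genes were. Dcn was among those 5 at -3.73 and Thy1 at -2.22 (-1.79 and -0.29 with spike-in scaling). In no.2 1 was called higher and 4 lower, where 12.1% and 16.2% of all tested genes were. The part of these markers was not tested either.

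**Figure D4:**
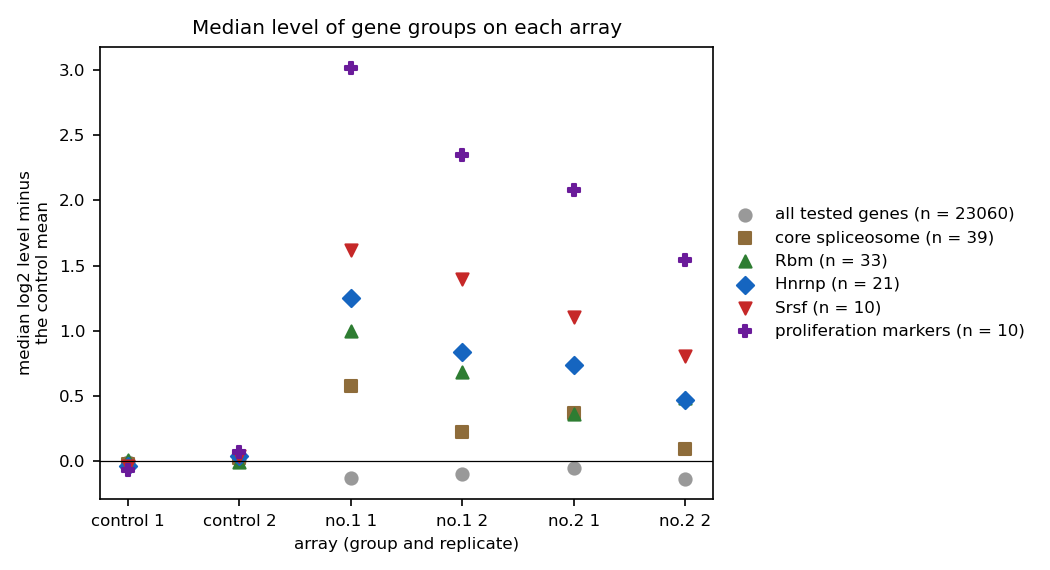
The x axis lists the 6 arrays by group and replicate, and the y axis is the median over a gene group of the log2 level minus the control mean. From no.1 replicate 1 to no.2 replicate 2 the Srsf median goes from 1.62 to 0.80 and the proliferation marker median from 3.02 to 1.55, while the median of all tested genes stays between -0.13 and -0.05; on the last array the Rbm point lies behind the Hnrnp point.

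Other genes of the splicing machinery were read through lists of related genes. Their counts stand beside 21.4% of all tested genes called higher and 26.4% lower in no.1, and 12.1% and 16.2% in no.2. Of 8 tested SR kinases, 4 were called higher in no.1 and 2 in no.2 and 0 lower, among them Dyrk1a at 1.59 and Srpk1 at 1.22 in no.1. Prpf4b was also called higher in no.1, at 1.30, but was well above background on 1 of the 2 control arrays only. Of 19 SR-related proteins and U2AF subunits, 10 were called higher and 2 lower in no.1, and 4 and 0 in no.2. Tra2a and Tra2b, the SR-like splicing activators, were at 1.57 and 1.48 in no.1 and Zranb2 at 1.41, while Luc7l2 at -0.90 and U2af1l4 at -0.86 were lower, values that spike-in scaling turns to 1.04 and 1.08. Of the core spliceosome, 12 of 39 genes were called higher in no.1 and 4 in no.2, none lower, with medians of 0.39 and 0.16. The count higher in no.2 is near the share of all genes called higher there. Its leading genes were the helicases Dhx15 at 1.94 and Ddx46 at 1.59 and the tri-snRNP protein Prpf3 at 1.47.

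Splicing regulators and hnRNPs with other names formed a further list. Of its 32 tested genes, 20 were called higher and 1 lower in no.1, and 12 and 3 in no.2, with medians of 0.88 and 0.49. Rbmx, the X-linked hnRNP G, had the largest change, 3.91 in no.1 and 3.12 in no.2, followed among genes measured on all arrays by Tia1 at 2.45 and 1.85 and Sfpq at 1.98 and 1.44. Nova1 was called higher in both, but was not well above background in control and has no fold here. Cirbp, the cold-inducible relative of Rbm3, was lower at -1.26 and -0.91, and spike-in scaling turns these to 0.67 and 0.38. Exon junction and nonsense-mediated decay genes had 5 of 12 called higher in no.1, led by Upf3b at 1.41, Magohb at 1.29 and Magoh at 1.05, and 0 of 12 in no.2, where 2 had an unadjusted p under 0.05 in limma, as did 44.9% of all tested genes. Of the m6A writer complex, 3 of 6 were called higher in no.1, Virma at 1.88, Wtap at 1.00 and Mettl14 at 0.87, and Virma alone in no.2 at 1.34.

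Probes of the same gene did not always give the same answer. For 35 of the 64 genes more than 1 probe was tested, in a fit over 29681 probes in which 22.0% were called higher and 24.6% lower in no.1. No gene had probes called in opposite directions, but signs were split for 5 genes in no.1 and 7 in no.2. All tested probes of a gene were called alike for 11 of the 35 genes in no.1 and 4 in no.2. Both counts include Srsf10 and Rbm14, whose second probes passed the filter only through the treated groups where they are high. The count in no.1 also includes Rbm39, with 1 probe that was not well above background on control replicate 2. The agreement of these probes is no independent support. In no.1, 1 of 2 probes was called for Hnrnpa2b1, Hnrnpf, Hnrnpk and Srsf5, among others. Their other probes stood at 1.03, 0.60, 0.32 and 0.70. The widest spread was in Hnrnpm, whose brightest probe gave 1.70 in no.1 and whose other probe gave -0.05 (SE 0.32). Hnrnpa1 had probes at 1.30, 1.04 and -0.11, the last named by a non-coding transcript variant. All 3 Hnrnpa3 probes were called, at 1.61, 1.63 and 1.77, and both Srsf3 probes, at 2.06 and 1.36. The second probes of Srsf10, Rbm14 and Rbm48 were not well above background on either control array, although they were on all 4 other arrays, so they give no fold. For Srsf11, 1 of 4 probes was called, at 1.45, beside 0.80, 0.82 and 0.46. For Hnrnpr, 2 of 4 probes were called in no.1, while the brightest, which stands for the gene above, was not. Of the 2 called, 1 was well above background on the no.1 arrays alone, so it gives no fold and no independent support.

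**Figure D5:**
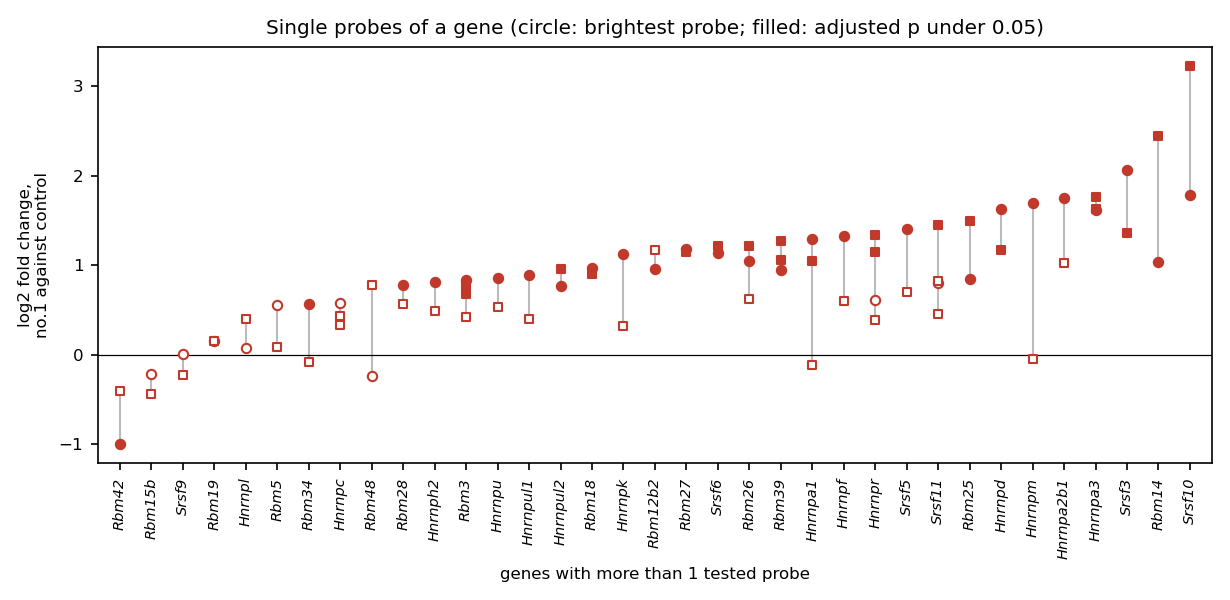
Each column is 1 of the 35 genes with more than 1 tested probe, ordered by its highest probe, and the y axis is the log2 fold change of no.1 against control, with the brightest probe as a circle, the others as squares, and filled symbols for an adjusted p under 0.05. Most genes have all probes above 0, while Hnrnpm, Hnrnpa1, Rbm34, Rbm48 and, narrowly, Srsf9 spread across 0.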

How the data were processed

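Total RNA of 6 samples in 3 groups of 2 was read with Cy3 on 1 single-colour Agilent array per sample, per the labels. The deposited scanner files hold intensity values, background-subtracted by the authors' Agilent Feature Extraction run (12.1.1.1 per the file headers, 9.5.1.1 in the submitters' processing notes) and not normalized between arrays. The series' value table, also deposited as intensity, lay within 1% of quantile-normalized processed signal for at least 99.9% of values. Levels here are processed signals on a log2 scale, relative to the 75th percentile of that array's 56605 non-control probes. Spots of a probe were averaged, and a gene was read from its brightest probe. Accessions were matched to RefSeq symbols (GRCm38.p6, names only, since the headers name mm9), which named 58.3% of probes. The value tables left 0 columns without a sample.

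Tests used limma 3.58.1 (lmFit, eBayes) under R 4.3.3 (tables read by data.table, version 1.17.8), fitted over all 23060 tested genes with a mean per group, 3 residual degrees of freedom and Benjamini-Hochberg adjustment, and the fit was tested on simulated data. Every adjusted p of a gene is from that fit. Every gene of the 3 families could be named, and full values went to up to 3 called genes per family, direction and contrast with the largest change, measured on all arrays and alike in 4 of 4 pairs of arrays, or to the 5 of lowest p where under 5 were called, and also to bounds. Of related lists, up to 3 called genes were named, and other genes were chosen after their values were seen. The families and lists were chosen with earlier results of these data known. Normexp (offset 50) used the median signal, since the files hold no mean signal. The alternatives were other scalings, background correction, filters, probe rules, averaged control arrays, a replicate block and leaving out each array. The replicate numbers were not taken as a pairing of the samples.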

Additional observations from a re-analysis of the deposited data

How the results depend on the processing

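The median over the 64 genes stayed above 0 in every alternative and contrast, and the number of calls varied. So did the share of all genes called. With normexp it was 25.2% higher and 44.8% lower in no.1, and 13.2% and 21.4% in no.2. Without the filter on dim probes 43.3% were lower in no.1, 29.5% in no.2 and 17% between no.1 and no.2, where 1.14% were higher. Spike-in scaling gave 82.3% higher in no.1 and 65.4% in no.2. Among genes above background on all 6 arrays 20.5% were lower in no.2. In no.1 against control, 46 genes higher became 19 with the control arrays averaged and 18 to 48 with 1 array left out. The 2 lower became 0 with median or spike-in scaling or averaged control arrays, 5 with normexp, 7 without the filter on dim probes (5 of them probes below background on all arrays) and 0 to 2 with 1 array left out. The median of 0.92 became 1.35 with median scaling, 2.86 with spike-in scaling, 1.31 with normexp and 0.78 to 1.11 with 1 array left out. In no.2 against control, 22 higher became 61 with spike-in scaling, 40 with normexp, 1 with averaged control arrays and 1 to 21 with 1 array left out. The 0 lower became 1 with normexp, 5 without the filter, 2 among genes above background on all 6 arrays and 0 to 3 with 1 array left out. The median of 0.52 became 0.84 with median scaling, 0.66 with quantile normalization or the deposited value table, 1.81 with spike-in scaling, 0.67 with normexp and 0.49 to 0.64 with 1 array left out. Between no.1 and no.2, 0 calls became 1 higher (Hnrnpa3) and 3 lower (Rbm11, Rbm46 and Rbm46os, all below background) without the filter, and the median of 0.40 became 1.05 with spike-in scaling and 0.24 to 0.55 with 1 array left out.

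Spike-in scaling turned Rbm4 and Rbm42 in no.1 against control to 0.97 and 0.94, and Rbm4, Rbm41 and Rbm4b between no.1 and no.2 to 0.33, 0.33 and 0.069, and normexp turned Rbm4b in no.1 against control to -0.37. The scaling also sets the calls of all genes: 4940 higher and 6081 lower in no.1 became 7564 and 3296 with median scaling, 5968 and 5006 with quantile normalization and 18972 and 422 with spike-in scaling, whose medians of all genes were 0.32, 0.07 and 1.82. In no.2, 2790 and 3728 became 4840 and 2176, 3714 and 3071, and 15083 and 534. Relative to the median of all genes, the 64 stood 0.88 to 1.72 higher in no.1, 0.60 to 1.06 in no.2 and 0.27 to 0.70 between no.1 and no.2 over the alternatives. Of the 46 genes called higher in no.1, 15 kept the call in all 18 alternatives, of the 22 in no.2 0 did. The share of all tested genes that kept a call in every alternative was not computed. With the replicate number as a block, 44 were higher and 2 lower in no.1, beside 20.6% and 25.2% of all genes. In no.2 19 were higher, beside 11.5%, and 0 were called between no.1 and no.2. The numbers are not taken as a pairing: deviations of same-numbered arrays correlated at -0.04, -0.02 and 0.17. Where 1 array is left, it is assumed to vary like the other groups. Dim probes such as Rbm4b and Rbm41 limit what can be read.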

Other observations

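The 7 genes on the array that were not tested are known from narrower tissues. Rbm20, a regulator of titin splicing in heart muscle, Rbm24, of striated muscle, Rbm11, of brain and testis, Rbm44 and Rbm46, of germ cells, and Rbm46os had no probe well above background on any array. Srsf12 was well above background on 2 of 6 arrays.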
